A study of Mus musculus with 12 samples.

Results

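Hearts that carried a virus for the gene Prodh were compared with hearts that carried the empty virus, all of them 4 weeks into pressure overload. The comparison used 6 of the 12 libraries of the series, 3 a side, from hearts of C57BL/6 mice. The labels number the samples of a group and do not say that each is a separate animal. The control side, called vector TAC here, had received AAV9-Vector and was labelled WT. The other side, PRODH TAC, had received AAV9-PRODH and was labelled PRODH Overexpression. AAV9 is an adeno-associated virus of serotype 9, which reaches heart muscle well. Transverse aortic constriction (TAC), an operation that narrows the aorta so that the heart must pump against a raised pressure, followed 3 weeks after the injection, and the tissue was taken 4 weeks later. The other 6 libraries, 3 vector sham and 3 PRODH sham, came from mice that received the same viruses and a sham operation. A gene was tested if 3 or more of the 12 libraries held a value of 1 or more, which was so for 21173 of 24775 genes. The series describes the overexpression as specific to the heart. The sources used here do not give the promoter that drives the viral gene or the sex and age of the mice.

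PRODH is proline dehydrogenase, a flavin enzyme of the inner mitochondrial membrane. It oxidises proline to pyrroline-5-carboxylate and passes the electrons to the respiratory chain, and a second enzyme, ALDH4A1, turns that product into glutamate. Proline and its hydroxylated form make up a large share of collagen. Under pressure overload the heart muscle cell enlarges, takes up parts of a fetal gene programme and burns less fatty acid, and cardiac fibroblasts become matrix-producing cells.

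The libraries held 10.1 to 15.2 M reads each, with 10.6, 13.9 and 15.2 M in vector TAC replicates 1, 2 and 3 and 11.1, 10.1 and 10.2 M in those of PRODH TAC. Replicates 2 and 3 of vector TAC were the deepest of these 6, and replicate 1 lay within the PRODH TAC range. All 12 libraries carried the ventricular myocyte markers, with no marker of that list at 0. In bulk tissue, fewer cells of a type and less RNA per cell cannot be told apart. Vector TAC replicate 1 stood apart from the other libraries of its group. Its reads differed from those of replicates 2 and 3 with chi-square values of 87.22 and 82.46 per degree of freedom, against 8.84 between those 2. Its mean log2 level of 16 epicardial and mesothelial markers lay 2.99 above the vector sham mean, against 0.64 and 0.29 in the others of its group and 2.85 in PRODH sham replicate 2. Its activated fibroblast markers lay 1.61 above that mean, against 3.24 and 2.94. Without this library 2719 genes were called instead of 831. Of the 831 genes, 819 were also called without it, in the same direction. So were all 187 genes named by rule and called in this comparison, Prodh not counted. Some of those 187 were picked because they kept their call without any one TAC library.

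The targeted gene, Prodh (ENSMUSG00000003526), read 245, 172 and 159.6 normalized reads in vector TAC replicates 1, 2 and 3 and 964, 1319.9 and 1021 in PRODH TAC. The lowest PRODH TAC library lay far above the highest vector TAC library. The log2 difference was 2.52 ± 0.24 (standard error, limma adjusted p = 0.00017), a fold of 5.75. In the sham libraries Prodh read 334, 292 and 379 in vector and 965, 497 and 1072 in PRODH, and PRODH sham replicate 2 was the lowest of the 6 libraries with the PRODH virus. The table has 1 entry for Prodh, and the sources used here do not say whether it also counts reads from the virus.

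**Figure D1:**
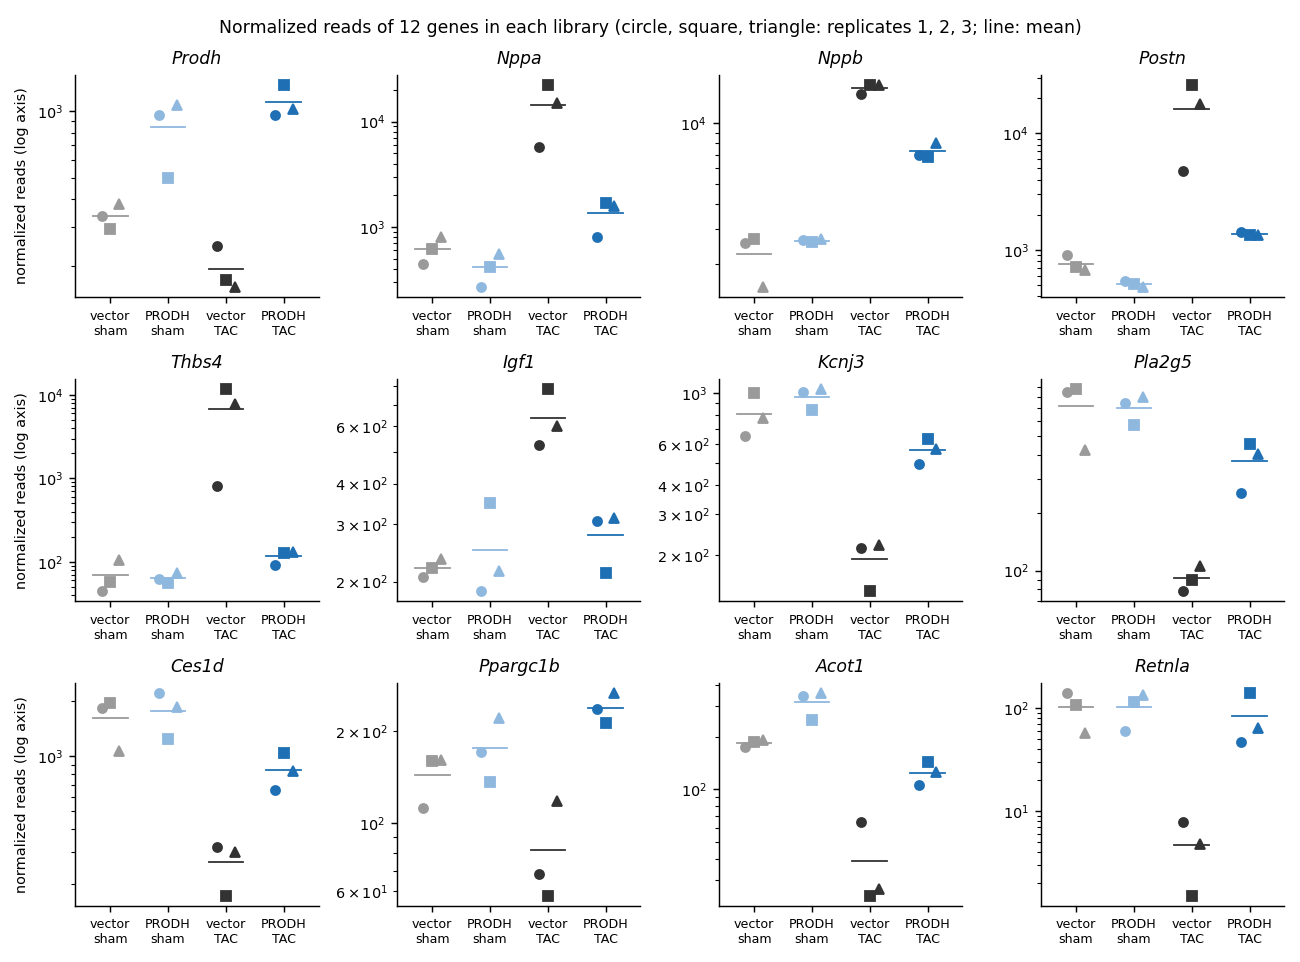
Normalized reads (log axis) of 12 genes in each of the 12 libraries, by group; circles, squares and triangles are replicates 1, 2 and 3 and the line is the group mean. In each of the 12 genes the 3 PRODH TAC libraries (dark blue) lie on one side of the 3 vector TAC libraries (black), above them for Prodh, Kcnj3, Pla2g5, Ces1d, Ppargc1b, Acot1 and Retnla and below them for Nppa, Nppb, Postn, Thbs4 and Igf1.

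Of the 21173 genes tested, 831 were called at an adjusted p under 0.05 (3.92%), 449 higher in PRODH TAC (2.12%) and 382 lower (1.80%). The falls were larger than the rises. The median log2 difference was 0.81 among genes called higher, -1.19 among those called lower and -0.01 over all genes. Of the called genes, 152 were at least 2-fold higher and 230 at least 2-fold lower, and 3 were at least 8-fold higher and 30 at least 8-fold lower. In 825 called genes the 3 PRODH TAC libraries did not overlap the 3 vector TAC libraries, which was so for 4370 of all genes tested (20.6%). By type, 780 of 15517 protein-coding genes, 33 of 2713 long noncoding RNAs and 15 of 1917 pseudogenes were called. On the scale used, log2(value + 1), changes of genes with few reads are understated, and 38 called genes had at most 3 reads over 1 of the TAC groups.

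The number of calls depended on single libraries. Leaving out vector TAC replicate 2 gave 248 calls and leaving out its replicate 3 gave 416. Leaving out PRODH TAC replicates 1, 2 and 3 in turn gave 339, 297 and 261. Without 1 of the 6 sham libraries, which only help to estimate the spread, it ran from 601 to 993. Fitting the 6 TAC libraries alone called 108 genes, 106 of them among the 831 with the same direction. A core of 210 genes (0.992%) was called whichever of the 6 TAC libraries was left out, 102 higher and 108 lower. Each called gene named below kept its call without any one of the 12 libraries unless libraries are named beside it, and in each the 3 PRODH TAC libraries lay wholly above or wholly below the 3 vector TAC libraries unless an overlap is stated. For gene lists, the brackets after a count give the lowest and highest count with 1 library left out. Where that moves the count by over 1.5 times, the libraries are named. They are written there and beside genes as V1 to V3 for vector TAC replicates 1 to 3, P1 to P3 for those of PRODH TAC, VS1 to VS3 for vector sham and PS1 to PS3 for PRODH sham. Of 59 lists with a call, the count moved by over 1.5 times in 41 lists without V2, in 30 without V1 or V3, in 31, 39 and 43 without P1, P2 and P3, and in 4 to 13 without a sham library.

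**Figure D2:**
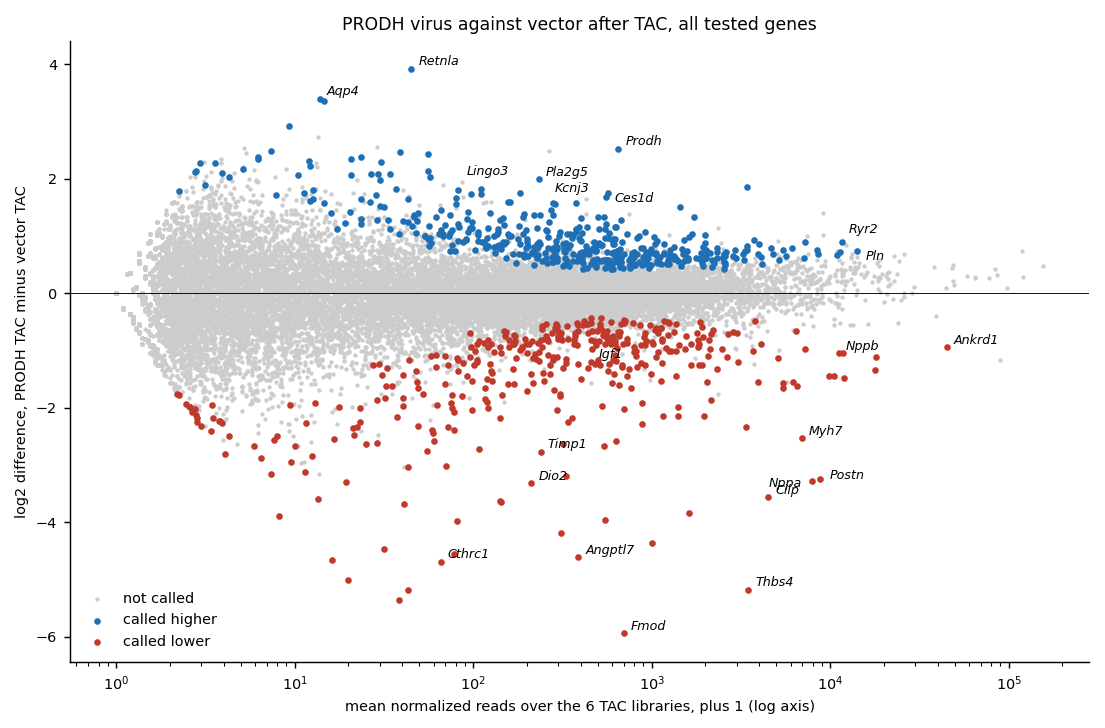
Log2 difference between PRODH TAC and vector TAC (vertical axis) against the mean normalized reads over the 6 TAC libraries plus 1 (log axis) for all tested genes. The 449 genes called higher are blue, the 382 called lower are red, and the red points reach further from 0, to -5.94 for Fmod.

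In the proline pathway, Aldh4a1 rose beside Prodh, the gene the virus carries, and some hydroxylases fell. Of 5 genes of proline breakdown 2 were called higher (1 without V2, P2 or P3) and 0 lower; the called pair was Prodh and Aldh4a1. Aldh4a1, the enzyme after PRODH, read 702, 586 and 635 in vector TAC and 1036, 1118 and 1155 in PRODH TAC, rose by 0.79 ± 0.15 and was not called without V2, P2 or P3 (0.72 to 0.77). Of 7 genes of proline synthesis 0 were called higher and 0 lower (1 without V1). Aldh18a1, which makes the precursor, differed by -0.56 ± 0.18 (limma adjusted p = 0.12) and was called without V1 (-0.74). Oat, which links ornithine to the same precursor, differed by 0.21 ± 0.12. Of 8 genes of proline hydroxylation in collagen 4 were called lower (1 without V2, V3, P1, P2 or P3 and 6 without V1) and 0 higher, namely P3h1, P3h2, P3h3 and P4hb. P3h3, of the prolyl 3-hydroxylase family, read 447, 815 and 599 against 291, 299 and 323 and fell by 0.98 ± 0.19 (limma adjusted p = 0.0091). P4ha1, the catalytic prolyl 4-hydroxylase subunit, differed by -0.52 ± 0.20 and was not called (limma adjusted p = 0.18; called without V1 (-0.76)). P3h1 fell by 0.70 ± 0.19, P3h2 fell by 1.23 ± 0.30 and P4hb fell by 0.48 ± 0.12. P3h1 was not called without VS1, VS2, VS3, PS1, PS2, PS3, V2, V3, P1, P2 or P3 (-0.71 to -0.48), P3h2 not called without V2, V3, P1, P2 or P3 (-1.29 to -1.02) and P4hb not called without VS2, PS1, PS3, V2, V3, P1, P2 or P3 (-0.50 to -0.41). Of 11 genes of glutamate handling and transamination 2 were called higher (0 without P2 and 5 without V1) and 0 lower (1 without V1). The called pair was Gpt and Gpt2. Gpt, the cytosolic alanine aminotransferase, rose by 1.00 ± 0.19 (not called without P2 (0.96)). Gpt2 was not called without P2 at least. Slc25a22, a mitochondrial glutamate carrier, is not in this list and is counted with the SLC25 family below. It read 286, 291 and 242 in vector TAC and 523, 476 and 566 in PRODH TAC and rose by 0.93 ± 0.17.

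Hormones of the stretched heart muscle were lower with the PRODH virus. Nppa encodes atrial natriuretic peptide and Nppb the B-type peptide, which both lower blood pressure and volume. Nppa read 5789.8, 22464 and 15172 in vector TAC and 809, 1674 and 1592 in PRODH TAC, with no overlap although vector TAC replicate 1 was well below its group. It fell by 3.28 ± 0.41 (limma adjusted p = 0.00095), a fold of 9.7. Nppb read 14077, 15576 and 15581 in vector TAC and 6963, 6821 and 8023 in PRODH TAC, a tight and separate pair of groups, and fell by 1.05 ± 0.18 (limma adjusted p = 0.0047). In vector sham they read 446, 614 and 810.2 and 2558, 2677 and 1542, so that all 3 PRODH TAC libraries lay above the vector sham mean in both genes. The receptors Npr1, Npr2 and Npr3 (-0.04 ± 0.19, 0.17 ± 0.13 and 1.39 ± 0.71) and the processing enzymes Corin (0.36 ± 0.20) and Furin (0.04 ± 0.15) were not called; of these, Corin, Npr1, Npr2 and Npr3 were picked after their values were seen. Nppa is also an atrial marker. So is Kcnj3, a channel gene that was called higher and is described below. Of 9 atrial myocyte markers 2 were called higher (1 without any one of 11 libraries) and 2 lower (1 without V2, V3, P1 or P3). Myl7, the atrial myosin light chain, read 6.7, 1.5 and 3.4 against 0.0, 9.9 and 2.2, and Sln, sarcolipin of the atrium, 0.0, 0.7 and 2.1 against 0.0, 7.7 and 1.1, so that both were at or near 0 in all 6 libraries. The summed level of the list ran from 6502 to 23517 in vector TAC and from 1664 to 2857 in PRODH TAC. Most of the vector TAC sum was Nppa itself, so the sum does not describe the list as a set. The mean log2 level of the list above vector sham overlapped, at 0.49, 0.84 and 1.02 in vector TAC and -0.07, 1.26 and 0.69 in PRODH TAC. Its median log2 difference was 0.23.

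Nppa and Nppb are neighbouring genes that fell together, and their promoter windows are shown for that reason, from 250 bases before to 50 bases after the start site, 5′ to 3′ on the gene's strand (RefSeq, GRCm38.p6; Nppa chr4:148000472-148000771 and Nppb chr4:147985650-147985949, both on the plus strand). Capitals mark motif matches on either strand. The MCAT element, which TEAD factors bind, was searched as CATTCC. Heart muscle promoters are also bound by GATA factors, whose element was searched as AGATAA. The ERR element given below for Hcn2 and the CArG box of serum response factor were searched too. Position -1 is the last base before the start site.
Nppa: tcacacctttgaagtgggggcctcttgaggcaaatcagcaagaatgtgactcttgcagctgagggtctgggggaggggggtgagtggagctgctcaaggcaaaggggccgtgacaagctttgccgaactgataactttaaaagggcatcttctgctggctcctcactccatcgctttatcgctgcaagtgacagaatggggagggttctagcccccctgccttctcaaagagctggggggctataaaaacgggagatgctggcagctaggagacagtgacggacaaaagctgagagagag
Nppb: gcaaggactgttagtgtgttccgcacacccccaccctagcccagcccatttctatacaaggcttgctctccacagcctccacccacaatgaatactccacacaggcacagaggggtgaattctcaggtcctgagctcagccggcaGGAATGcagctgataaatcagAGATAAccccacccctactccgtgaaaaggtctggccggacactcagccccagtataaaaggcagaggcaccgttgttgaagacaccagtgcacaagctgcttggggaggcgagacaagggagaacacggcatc
The Nppa window held none of the 4 motifs as searched. The Nppb window held MCAT on the minus strand at -105 and AGATAA, the GATA element as searched, on the plus strand at -84. Both windows also hold TGATAA, which differs from the searched letters in the first base, was not searched and is not marked. Absence of a match to AGATAA thus does not show that a window lacks a GATA element. MCAT was present in 14.7% of the 32851 windows searched. Gene sets were counted by gene, a gene with several windows counting if any of them matched, so their shares and that of windows are unlike measures. MCAT was present in 15.1% of tested genes with a window, in 67 of 335 genes called higher and in 48 of 277 called lower (17.3%). The GATA element as searched was present in 11.2% of the windows, 8.7% of the tested genes, 37 of the 335 and 20 of the 277 (7.2%). A match describes the letters and not binding.

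Other muscle stress genes moved less evenly. Myh7, the slow myosin heavy chain of the fetal and stressed mouse ventricle, read 4242, 17684 and 14192 in vector TAC and 2451, 1277 and 1781 in PRODH TAC and fell by 2.53 ± 0.47 (not called without P2 (-2.29)). Myh6, the fast adult chain, read 127248, 126708 and 136408 and 172266, 204509 and 168295, every PRODH TAC library above every vector TAC library, and differed by 0.48 ± 0.44 without a call (limma adjusted p = 0.67). Acta1, skeletal muscle actin, spread widely in PRODH TAC, at 90951, 23061 and 63673, and was not called (-1.17 ± 0.64). Of 19 stretch sensor and LIM domain genes 4 were called lower (0 without V2, P2 or P3 and 5 without V1) and 0 higher (3 without V1). Ankrd1, a titin-bound ankyrin repeat protein of overloaded muscle, read 55188, 63516 and 58112 in vector TAC and 37148, 24188 and 31785 in PRODH TAC. It fell by 0.94 ± 0.24 and was not called without VS2, PS1, PS2, PS3, V2, V3, P1, P2 or P3 (-1.09 to -0.78). Xirp2, an actin-binding protein of the intercalated disc, read 19448, 33601 and 24261 against 11812, 7951 and 10430.4, fell by 1.34 ± 0.28 and was not called without V2, P2 or P3 (-1.37 to -1.13). Both remained above all 3 vector sham libraries in every PRODH TAC library, where vector sham read 7801, 7371 and 13117 for Ankrd1 and 2681, 4732 and 6718 for Xirp2. Of 16 tubulins and microtubule proteins 0 were called higher and 0 lower (5 without V1), with a median of -0.29.

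Most marker genes of activated fibroblasts fell. When fibroblasts respond to injury or load they secrete matricellular proteins that mark the activated state. Of 20 such markers 14 were called lower (7 without V2 and 16 without V1) and 1 higher, with a median of -1.75 against -0.01 over all genes. Postn, periostin, read 4752, 26238 and 17799 in vector TAC and 1428, 1349.5 and 1335 in PRODH TAC. The 3 PRODH TAC values nearly coincided, while those of vector TAC spread widely. Postn fell by 3.25 ± 0.40 (limma adjusted p = 0.00095).

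Cilp, a cartilage intermediate layer protein that binds TGF-beta, read 3286, 11781 and 10056 against 763, 530.4 and 587 and fell by 3.56 ± 0.36 (limma adjusted p = 0.00025). Ltbp2, a microfibril protein related to the binding proteins of latent TGF-beta, read 495, 5119 and 3628 against 165, 146 and 127 and fell by 3.84 ± 0.60. Timp1, an inhibitor of matrix metalloproteinases, read 263, 628 and 366 against 66.5, 45.0 and 60.4 and fell by 2.77 ± 0.35. In all 3 genes vector TAC replicate 1 was the lowest of its group and still above every PRODH TAC library. Lrrc15, a membrane protein of activated fibroblasts, went the other way: it read 158, 82.5 and 168 against 319.6, 312 and 376 and rose by 1.36 ± 0.23 (limma adjusted p = 0.0039). The contractile myofibroblast markers Acta2 (0.07 ± 0.32) and Tagln (-1.42 ± 0.48) were not called, with limma adjusted p = 0.95 and 0.12; these 2 were picked after their values were seen.

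Thrombospondin 4, Thbs4, a matricellular protein that rises in loaded muscle and tendon, had one of the largest falls. It read 799.9, 11819.9 and 7880.4 in vector TAC and 91.3, 128 and 131 in PRODH TAC, and 44.2, 58.0 and 105 in vector sham. PRODH TAC thus lay near vector sham, while vector TAC replicate 1 lay far below its group and above all 9 libraries of the other groups. It fell by 5.18 ± 0.67 (limma adjusted p = 0.0011). Its promoter window, shown because of that fall, held a pair of overlapping MCAT elements on the plus strand at -197 and -192, in capitals (RefSeq, GRCm38.p6, chr13:92794769-92795068, minus strand, 5′ to 3′ on the gene's strand).
Thbs4: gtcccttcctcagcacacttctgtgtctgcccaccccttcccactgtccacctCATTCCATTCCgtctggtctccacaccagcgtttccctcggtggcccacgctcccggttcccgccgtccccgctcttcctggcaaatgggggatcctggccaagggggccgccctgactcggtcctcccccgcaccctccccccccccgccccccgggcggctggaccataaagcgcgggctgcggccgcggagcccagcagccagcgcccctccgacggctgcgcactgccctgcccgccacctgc
Among 13 activated fibroblast markers with a window, 4 held MCAT (30.8%). None of the 13 held the GATA element, the ERR element or the CArG box in these windows.

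Some genes of the structural matrix fell as well. Of 20 fibrillar and associated collagen chains 8 were called lower (2 without V2 and 15 without V1) and 1 higher (0 without V2, V3, P1, P2 or P3), with a median of -1.10. Col5a2, a chain of the minor fibrillar collagen V, read 1283, 5472 and 3739.9 against 792, 816 and 854 and fell by 1.86 ± 0.34 (limma adjusted p = 0.0073). Col8a1, a short-chain collagen, read 2406, 8945 and 5848 against 1106, 887 and 994 and fell by 2.34 ± 0.34. In both the PRODH TAC libraries formed a narrow band below every vector TAC library. The main chains of fibrous collagen were less firm. Col1a1 read 2820.1, 14726 and 9337 against 2601, 2467 and 2402, with vector TAC replicate 1 near the PRODH TAC libraries, and was not called at -1.55 ± 0.42 (limma adjusted p = 0.052; called without VS1 or V1 (-2.24 to -1.55)). Col1a2 fell by 1.61 ± 0.32 and was not called without V2, V3, P2 or P3 (-1.61 to -1.22). Col3a1 fell by 1.45 ± 0.29 and was not called without V2, P2 or P3 (-1.47 to -1.13). Col6a6, a collagen VI chain, rose by 1.45 ± 0.31 and was not called without V2, V3, P1, P2 or P3 (1.26 to 1.47). Of 18 other collagen chains, basement membrane included, 2 were called lower (0 without V2 and 8 without V1) and 0 higher. Col4a1, the main basement membrane chain, differed by -0.54 ± 0.29 (limma adjusted p = 0.39; called without V1).

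Falls also reached genes that bind, process and crosslink the fibres. Of 12 small leucine-rich proteoglycans 6 were called lower (5 to 7) and 0 higher, among them the fibril regulators decorin, biglycan and fibromodulin. Dcn read 14773, 15495 and 17302 against 8243, 7520.5 and 7268 and fell by 1.05 ± 0.17 (limma adjusted p = 0.0034). Bgn read 11207, 24666 and 17905 against 6734, 5322 and 6296 and fell by 1.48 ± 0.26. Fmod read 300.1, 2232 and 1608 against 16.9, 9.9 and 23.1, and differed by -5.94 ± 0.83 (limma adjusted p = 0.0015). Of 20 genes of collagen folding, processing and crosslinking 9 were called lower (2 without P3 and 17 without V1) and 0 higher. Lox, the lysyl oxidase that crosslinks collagen and elastin, read 262, 1745 and 901 against 144, 112 and 97.7 and fell by 2.67 ± 0.48 (limma adjusted p = 0.006). Pcolce, an enhancer of procollagen cleavage, fell by 1.25 ± 0.19. Serpinh1, the collagen chaperone, differed by -0.64 ± 0.20 and was not called (limma adjusted p = 0.096; called without V1 (-0.91)).

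Of 19 elastic fibre and microfibril genes 9 were called lower (6 to 13) and 0 higher (1 without VS1, VS3 or V1), with a median of -0.98. Mfap4, a glycoprotein bound to microfibrils, read 1534, 3153 and 2224 in vector TAC and 572, 406 and 536 in PRODH TAC and fell by 2.14 ± 0.23 (limma adjusted p = 0.00031). Mfap5, of the same family name, read 2056, 4416 and 3246 against 718, 796 and 604 and fell by 2.14 ± 0.24 (limma adjusted p = 0.00041). In both genes vector TAC replicate 1 was the lowest of its group and well above the highest PRODH TAC library. Fbln5, which guides elastin assembly, fell by 1.32 ± 0.20. Fbn1, the main microfibril protein, differed by -1.24 ± 0.36 without a call (limma adjusted p = 0.07; called without V1 (-1.84)).

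Several signals around the matrix fell too. Of 6 CCN genes 3 were called lower (2 to 3) and 0 higher. Ccn2, connective tissue growth factor, read 4299, 12125 and 11883 against 2855, 3056 and 2915 and fell by 1.54 ± 0.28 (limma adjusted p = 0.0067), and Ccn5 fell by 2.02 ± 0.36. Ccn1, of the same family, read 1319.7, 1760.2 and 1678 against 1980.4, 1184 and 1920.1, overlapped and was not called (0.07 ± 0.22). Of 21 TGF-beta ligands, receptors and mediators 5 were called lower (2 without V2 or P3 and 15 without V1) and 0 higher. Tgfb3, a ligand, read 561, 1119 and 864 against 348, 312 and 438 and fell by 1.17 ± 0.21 (limma adjusted p = 0.0056). Of 21 Wnt antagonists and readouts 4 were called lower (3 without V2, V3, P1 or P3 and 7 without V1) and 1 higher (0 without V2, P1 or P3 and 2 without VS3 or V1). Sfrp1, a secreted antagonist, fell by 1.60 ± 0.24. Frzb, another, read 292, 815 and 601 against 146, 96.6 and 93.3 and fell by 2.24 ± 0.30 (limma adjusted p = 0.0011). Wnt5a, a ligand, rose by 0.89 ± 0.17 and was not called without V2, P1 or P3 (0.79 to 0.87).

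Of 32 matrix proteases and inhibitors 8 were called lower (1 without V2 and 14 without V1) and 1 higher (0 without V2, P2 or P3 and 3 without V1). Mmp2, gelatinase A, fell by 1.32 ± 0.25 and was not called without V2 (-1.06). Mmp15, a membrane-type metalloproteinase, rose by 0.77 ± 0.18 and was not called without V2, P2 or P3 (0.68 to 0.82). Ctsk, cathepsin K, a protease that cuts collagen, read 273, 303 and 340.4 against 121, 116 and 104 and fell by 1.41 ± 0.16 (limma adjusted p = 0.00041). Of 29 integrins and laminins 3 were called lower (1 without V2, V3, P2 or P3 and 9 without V1) and 1 higher (2 without V1). Itgbl1, a secreted protein with integrin beta repeats, read 1027, 1844 and 1333 against 457, 258 and 394 and fell by 1.92 ± 0.28. Itgb6, an epithelial integrin chain that activates latent TGF-beta, read 82.6, 83.3 and 103 against 229, 169 and 226 and rose by 1.20 ± 0.18. Of 15 tendon and cartilage genes 7 were called lower (3 without V2 and 9 without V1) and 0 higher (2 without V1). Scx, the tendon transcription factor, fell by 1.18 ± 0.24 and was not called without V2 or P2 (-1.05 to -1.04).

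Markers of other cells were set beside these falls. Of 15 resting fibroblast markers 5 were called lower (2 without V2, V3, P1 or P3 and 10 without V1) and 1 higher (0 without PS3, V2, P1, P2 or P3), with a median of -0.53. Their summed level ran from 44439.6 to 66464 normalized reads in vector TAC and from 36507 to 44225 in PRODH TAC, with no marker at 0. Pi16, a marker of adventitial fibroblasts, read 1813, 3976 and 3453 against 955, 1229.8 and 864 and fell by 1.54 ± 0.24 (limma adjusted p = 0.0026). Scara5, another marker of resting fibroblasts, rose by 0.83 ± 0.20 and was not called without PS3, V2, P1, P2 or P3 (0.61 to 0.95). The summed level of the activated markers ran from 12687 to 64905 in vector TAC and from 4854 to 5372 in PRODH TAC, with no marker at 0. Of 15 endothelial markers 0 were called higher and 0 lower (3 without V1), with a median of -0.07. Of 13 pericyte and smooth muscle markers 0 were called higher and 0 lower (6 without V1), with a median of -0.30. How far the number of fibroblasts takes part in the falls of matrix genes was not tested.

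**Figure D3:**
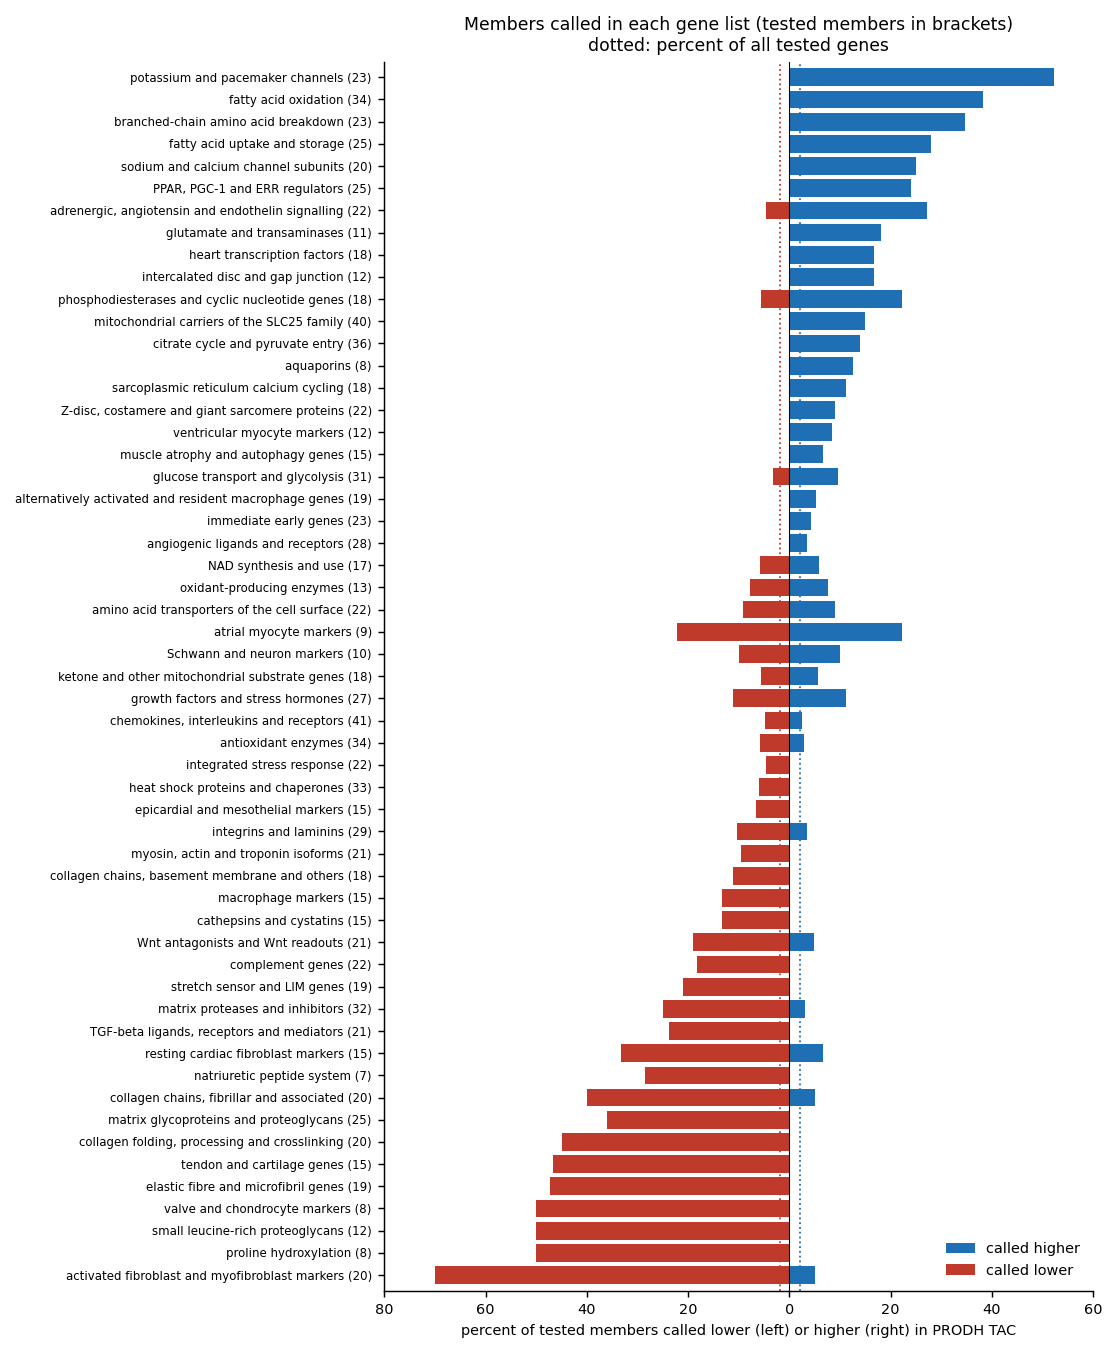
Percent of the tested members of each gene list called lower (left, red) or higher (right, blue) in PRODH TAC, for lists with calls. The lists of proline breakdown, CCN genes, thrombospondins and lymphatic markers also had calls but were left out as short. Tested members are in brackets and the dotted lines mark 1.80% and 2.12%, the percent of all tested genes. Channel and fuel genes lie at the top and fibroblast and matrix genes at the bottom.

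Many ion channel genes of the heart muscle cell rose with the PRODH virus. Potassium channels repolarise the cell and pacemaker channels carry the current that starts the next beat. Of 23 such genes 12 were called higher (7 without V2, P2 or P3 and 13 without V1) and 0 lower, with a median of 0.60. Kcnj3, a subunit of the channel opened by acetylcholine, read 213, 139 and 221 in vector TAC and 495, 629 and 569.8 in PRODH TAC. It rose by 1.58 ± 0.19 (limma adjusted p = 0.00068) and remained below the vector sham mean of 809. Kcnj3 is also in the list of atrial myocyte markers. Kcnh2, the rapid delayed rectifier, read 445, 324 and 394 against 749.5, 1082 and 784 and rose by 1.16 ± 0.19. Kcnk3, a leak channel, read 2116, 2107 and 2257 against 3558, 3656 and 3784, tight in both groups, and rose by 0.76 ± 0.13 (limma adjusted p = 0.0041). Kcnv2, a silent modulatory subunit, rose by 1.37 ± 0.21. Kcnj5, the partner of Kcnj3 in that channel, rose by 1.13 ± 0.20 and Kcnd3, of the transient outward current, by 0.96 ± 0.17. The other called members were Hcn2, Kcnj11, Kcnd2, Kcnip2, Kcnq1 and Hcn4, and the last 5 of these were not called without vector TAC replicate 2 or without PRODH TAC replicate 3, among other libraries. Kcnj5, Kcnd2, Kcnd3, Kcnip2, Kcnq1 and Hcn4 were picked after their values were seen.

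Hcn2, the main pacemaker channel of the ventricle, read 261, 189 and 256 in vector TAC, 441, 540.2 and 563 in PRODH TAC, 624, 659 and 537 in vector sham and 612, 469 and 506 in PRODH sham. It rose by 1.13 ± 0.16 in TAC hearts (limma adjusted p = 0.0015) and differed by -0.20 in sham hearts. Its promoter window is shown as that of a rising channel gene with an element of metabolic receptors (RefSeq, GRCm38.p6, chr10:79716384-79716683, plus strand, 5′ to 3′). Capitals mark the ERR element, searched as AAGGTCA, which estrogen-related receptors bind, on the minus strand at -249 and -168.
Hcn2: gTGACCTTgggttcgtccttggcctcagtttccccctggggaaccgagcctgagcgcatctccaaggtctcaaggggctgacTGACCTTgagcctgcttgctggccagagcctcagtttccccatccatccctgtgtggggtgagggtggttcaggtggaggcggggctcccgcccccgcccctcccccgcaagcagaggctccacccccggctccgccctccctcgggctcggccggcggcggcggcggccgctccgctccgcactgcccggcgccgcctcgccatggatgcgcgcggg
That element was present in 4.7% of the windows searched. Counted by gene, over any window of the gene, it was present in 4.3% of tested genes, 6.0% of genes called higher and 4.3% of genes called lower. In the list of fatty acid oxidation, 2 of 27 genes with a window held it (7.4%). Among potassium and pacemaker channels 1 of 15 did (6.7%), namely Hcn2, which was picked for it.

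Of 20 sodium and calcium channel subunits 5 were called higher (1 without V2 or P3 and 6 without VS1) and 0 lower (1 without V1). Scn4a, the skeletal muscle sodium channel, read 165, 108 and 165 against 474, 373 and 430.3 and rose by 1.56 ± 0.23 (limma adjusted p = 0.0022). Of 18 genes of sarcoplasmic reticulum calcium cycling 2 were called higher (0 without any one of 8 libraries and 5 without V1) and 0 lower (1 without V1). Pln, phospholamban, which restrains the calcium pump, read 13041, 9615 and 9337 against 17579, 16752 and 18407, rose by 0.74 ± 0.19 and was not called without VS2, PS1, PS3, V2, V3, P1, P2 or P3 (0.65 to 0.77). Ryr2, the calcium release channel, read 8866, 6764 and 8765 against 14734, 15286 and 15245, rose by 0.90 ± 0.24 and was not called without VS2, PS1, PS2, PS3, V2, V3, P1, P2 or P3 (0.78 to 0.96). Atp2a2, the pump itself, was higher in every PRODH TAC library (94726, 76908 and 95138 against 147029, 149995 and 147431) and was not called (0.74 ± 0.38; limma adjusted p = 0.36).

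Adrenergic receptors of the alpha-1 type rose. Of 22 genes of adrenergic, angiotensin and endothelin signalling 6 were called higher (2 without V2, P2 or P3) and 1 lower (0 without V2, V3, P2 or P3 and 2 without V1). Adra1a, the alpha-1A receptor, which couples noradrenaline to contraction and growth, read 146, 82.5 and 142 in vector TAC and 313, 287 and 338 in PRODH TAC and rose by 1.37 ± 0.22 (limma adjusted p = 0.0033). Adra1b, the alpha-1B receptor, read 189.6, 114 and 175 against 367, 445 and 392 and rose by 1.36 ± 0.20 (limma adjusted p = 0.0022). In both genes the lowest PRODH TAC library lay well above the highest vector TAC library. Ace, the angiotensin converting enzyme, fell by 1.20 ± 0.24 and was not called without V2, V3, P2 or P3 (-1.17 to -0.95). Of 18 phosphodiesterases and cyclic nucleotide genes 4 were called higher (0 without P3 and 6 without VS1 or V1) and 1 lower (2 without V1). The fall was in Pde1a, a calmodulin-activated phosphodiesterase, which read 182, 231 and 208 against 119, 108 and 95.5 and fell by 0.94 ± 0.17 (limma adjusted p = 0.0064).

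Of 18 heart transcription factors 3 were called higher (1 without V2, P2 or P3 and 6 without VS1 or V1) and 0 lower (1 without V1). Tbx5, a T-box factor of heart development and conduction, read 82.6, 83.3 and 92.5 against 151, 155 and 153, with little spread in either group, and rose by 0.82 ± 0.14 (limma adjusted p = 0.0041). Hopx, a homeodomain protein without DNA binding of its own, rose by 1.33 ± 0.26 and was not called without V2, P2 or P3 (1.00 to 1.33). Of 12 genes of the intercalated disc and gap junction 2 were called higher (1 without V2, P1, P2 or P3 and 3 without V3) and 0 lower (2 without V1). Dsg2, the desmosomal cadherin of the heart, read 367, 254 and 426 against 654, 815 and 772 and rose by 1.12 ± 0.20 (limma adjusted p = 0.006). Gja1, connexin 43, differed by 0.53 ± 0.17 and was not called.

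Some genes of fuel use rose. The healthy heart draws most of its energy from fatty acids, which carnitine carriers bring into mitochondria for stepwise oxidation. Of 34 genes of fatty acid oxidation 13 were called higher (2 without V2, V3, P2 or P3 and 26 without V1) and 0 lower (1 without V1). Of the same genes 33 had a difference above 0, and the median was 0.60. Acot1, a cytosolic thioesterase that frees fatty acids from coenzyme A, read 64.7, 24.5 and 26.7 in vector TAC and 105, 143 and 126 in PRODH TAC and rose by 1.80 ± 0.29 (limma adjusted p = 0.0031). Acot2, its mitochondrial counterpart, read 581, 448 and 409.6 against 904, 893 and 835 and rose by 0.89 ± 0.15. Acot1 and Acot2 are close paralogs, and how reads they share were counted is not stated. Theirs were the only 2 calls of the list that held whichever TAC library was left out. Acacb, acetyl-CoA carboxylase 2, whose product restrains the entry of fatty acids into mitochondria, was called higher too. The Acacb call was lost without V2, V3, P2 or P3 at least. Acadm, the medium-chain dehydrogenase, read 11182, 7130.1 and 7902 against 13680.1, 14186 and 14472, rose by 0.72 ± 0.19 and was not called without VS2, VS3, PS1, PS2, PS3, V2, V3, P1, P2 or P3 (0.59 to 0.74). Hadha, the trifunctional protein subunit, differed by 0.69 ± 0.19 and was not called (limma adjusted p = 0.059; called without VS1 or V1 (0.69 to 0.81)).

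Of 25 genes of fatty acid uptake and storage 7 were called higher (1 without P2 or P3 and 10 without V1) and 0 lower. Fitm2, which helps form lipid droplets, read 1615, 1124 and 1503 against 2613, 2375 and 2718 and rose by 0.88 ± 0.15 (limma adjusted p = 0.0056). Cd36, the fatty acid translocase, read 17154, 15472 and 17981 against 21671, 19751 and 19546 and was not called (0.27 ± 0.20). PPAR and ERR nuclear receptors and their PGC-1 coactivators set the expression of mitochondrial genes. Of 25 such regulators 6 were called higher (2 without V2, P1, P2 or P3 and 13 without V1) and 0 lower (2 without V1). Ppargc1b, the coactivator PGC-1 beta, read 68.0, 58.0 and 118 in vector TAC and 237, 213 and 267 in PRODH TAC, above all 3 vector sham libraries (112, 160.3 and 161). It rose by 1.60 ± 0.25 (limma adjusted p = 0.003). Esrrg, estrogen-related receptor gamma, read 373, 294 and 365 against 623, 575 and 586 and rose by 0.80 ± 0.13 (limma adjusted p = 0.0032). Esrra, the alpha receptor, differed by 0.36 ± 0.13 and was not called (called without V1 (0.48)).

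Of 23 genes that break down branched-chain amino acids 8 were called higher (3 without V2, V3, P1, P2 or P3 and 20 without V1) and 0 lower (1 without V1), and 22 differences were above 0, with a median of 0.45. Ppm1k, the phosphatase that switches on the branched-chain dehydrogenase, read 377, 332 and 451 against 746, 904 and 941 and rose by 1.16 ± 0.19 (limma adjusted p = 0.0038). Ivd, isovaleryl-CoA dehydrogenase of leucine breakdown, read 3167, 2455 and 2844 against 4822, 5348 and 5245 and rose by 0.87 ± 0.16. Aldh6a1, of valine breakdown, rose by 0.81 ± 0.14. Of 36 genes of the citrate cycle and pyruvate entry 5 were called higher (1 without V2, P1, P2 or P3 and 28 without V1) and 0 lower. Pdp2, the phosphatase that activates pyruvate dehydrogenase, read 108, 87.0 and 124 against 237, 259 and 340.3 and rose by 1.38 ± 0.18 (limma adjusted p = 0.0011). Pdk2, a kinase that inactivates the same enzyme, was called higher too. The Pdk2 call was lost without V2, P1, P2 or P3 at least.

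No respiratory chain subunit listed was called. This held for 37 complex I genes and 39 genes of complexes III, IV and V, with medians of 0.27 and 0.25. That rested on vector TAC replicate 1, without which 28 and 27 of them were called higher. Between PRODH sham and vector sham the medians of these lists were 0.29 and 0.31, so a difference of like size was there without load. The complex I level above vector sham was 0.22, -0.69 and -0.66 in vector TAC and -0.22, -0.10 and -0.10 in PRODH TAC, so that this library lay above all PRODH TAC libraries and the other 2 below them. Of 40 mitochondrial carriers of the SLC25 family 6 were called higher (2 without V2, V3, P1, P2 or P3 and 16 without V1) and 0 lower (1 without V1). Slc25a42, the carrier of coenzyme A, read 356, 292 and 344 against 769, 721 and 821 and rose by 1.22 ± 0.16 (limma adjusted p = 0.0011).

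Sugar and cofactor genes gave single changes. Of 31 genes of glucose transport and glycolysis 3 were called higher (2 without V2, V3, P1, P2 or P3 and 8 without V1) and 1 lower (0 without any one of 10 libraries and 4 without V1). Pfkfb1, an enzyme that sets fructose 2,6-bisphosphate, read 33.5, 11.9 and 21.2 against 62.5, 96.6 and 111 and rose by 2.04 ± 0.32 (limma adjusted p = 0.0029). Ldhd, the D-lactate dehydrogenase of mitochondria, read 431, 354 and 371 against 766, 777 and 720.2 and rose by 0.97 ± 0.13 (limma adjusted p = 0.0013). Of 17 genes of NAD synthesis and use 1 was called higher (6 without V1) and 1 lower. Nmrk2, the muscle nicotinamide riboside kinase, read 249.9, 567 and 306 against 133, 119 and 112 and fell by 1.53 ± 0.26. Nadk2, the mitochondrial NAD kinase, read 505, 383 and 412 against 764, 822 and 759 and rose by 0.86 ± 0.14. Of 22 amino acid transporters of the cell surface 2 were called higher and 2 lower (0 without V2, V3, P1, P2 or P3 and 7 without V1). Slc36a2, a proton-coupled transporter of small amino acids such as proline and glycine, read 104, 66.2 and 78.1 against 164, 223 and 236 and rose by 1.32 ± 0.21 (limma adjusted p = 0.0031). Slc38a3, a glutamine transporter, rose by 0.72 ± 0.11 (limma adjusted p = 0.0026).

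Myocyte markers were set beside these rises. Of 12 ventricular myocyte markers 1 was called higher (0 without any one of 9 libraries and 5 without V1) and 0 lower; the called one was Ryr2, with the libraries its call needs given above. Of these markers 11 differed by more than 0, with a median of 0.37. Their summed level ran from 514572 to 671328 in vector TAC and from 681520.1 to 768289 in PRODH TAC, with no overlap and no marker at 0. The part of the myocyte share in the rises of channel and fuel genes was not tested.

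**Figure D4:**
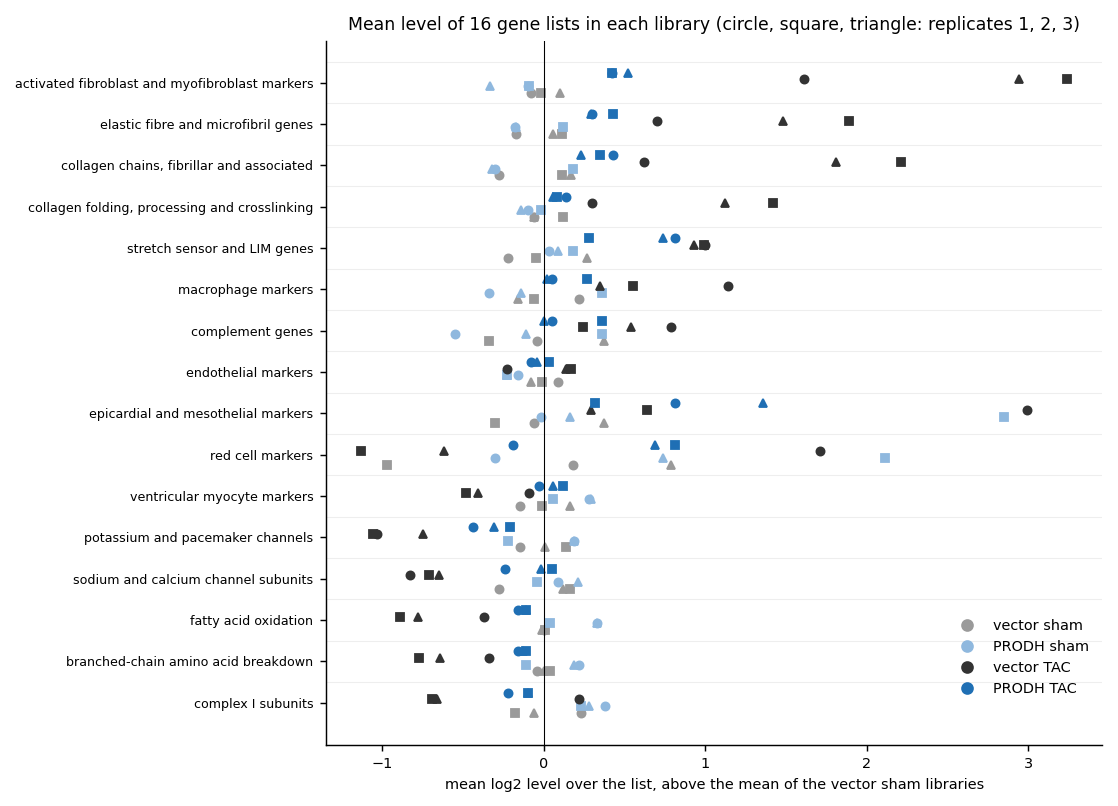
Mean log2 level of 16 gene lists in each library, set to 0 at the mean of the vector sham libraries; colours are groups and circles, squares and triangles are replicates 1, 2 and 3. For activated fibroblast markers vector TAC lies at 1.61 to 3.24 and PRODH TAC at 0.42 to 0.52, for potassium and pacemaker channels the order is turned, and within vector TAC replicate 1 lies apart from replicates 2 and 3 in epicardial, red cell and complex I genes.

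Growth factors split. Of 27 growth factors and stress hormones 3 were called higher (1 without V2, P2 or P3 and 4 without V1) and 3 lower (1 without V2, V3, P1 or P3 and 10 without V1). Igf1, insulin-like growth factor 1, read 526, 782 and 602 in vector TAC and 308, 213 and 313 in PRODH TAC and fell by 1.20 ± 0.22 (limma adjusted p = 0.0069). Fgf13, an intracellular FGF relative that binds sodium channels, read 326, 325 and 351 against 536, 548 and 613 and rose by 0.76 ± 0.12 (limma adjusted p = 0.0034). Of 28 angiogenic ligands and receptors 1 was called higher (2 without VS1 or V1) and 0 lower (8 without V1). The rise was in Angpt1, the ligand that steadies vessels through the receptor Tie2, which read 117, 90.7 and 114 against 251, 295 and 269 and rose by 1.34 ± 0.19 (limma adjusted p = 0.0018). Of 8 aquaporins 1 was called higher and 0 lower (1 without VS1 or V1). The call was Aqp4, a water channel of muscle and glia, which read 3.3, 0.0 and 1.4 against 10.9, 31.8 and 29.6 and rose by 3.40 ± 0.60 (limma adjusted p = 0.0058). Its levels are low, and in vector sham it read 129.6, 87.8 and 38.9, above every TAC library.

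Stress and redox genes gave a few firm changes. Of 22 integrated stress response genes 1 was called lower (4 without V1) and 0 higher (1 without VS1 or V1). The fall was in Nupr1, a small chromatin protein induced by cell stress. It read 453, 551 and 422 in vector TAC and 117, 115 and 112 in PRODH TAC, a gap far wider than the spread in either group, and fell by 2.03 ± 0.20 (limma adjusted p = 0.00017). Vector sham read 120.3, 85.1 and 74.6. Atf4, the pathway's transcription factor, differed by -0.16 ± 0.11. Of 13 oxidant-producing enzymes 1 was called higher and 1 lower (2 without V1). Nox4, an NADPH oxidase that makes hydrogen peroxide, read 135, 240.1 and 184 against 27.8, 18.7 and 36.2 and fell by 2.72 ± 0.45 (limma adjusted p = 0.0038). Maob, monoamine oxidase B of the outer mitochondrial membrane, read 326, 181 and 225 against 435, 484 and 479.7 and rose by 0.97 ± 0.17 (limma adjusted p = 0.0055). Of 34 antioxidant enzymes 2 were called lower (0 without V2 or P2 and 3 without VS1 or V1) and 1 higher (0 without V2, V3, P1, P2 or P3 and 8 without V1). Of 33 heat shock proteins and chaperones 2 were called lower (0 without V2, V3, P2 or P3 and 9 without V1) and 0 higher (2 without V1), and Hspa8, a constitutive chaperone, differed by -0.12 ± 0.20.

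Immune genes gave few calls. Of 22 complement genes 4 were called lower (3 to 6) and 0 higher (1 without V1). C1s1 and C1ra, proteases of the first component, fell by 0.76 ± 0.12 and 0.80 ± 0.14, and Serping1, their inhibitor, read 2977, 3578 and 3232 against 1747, 1859 and 1419.5 and fell by 0.97 ± 0.15 (limma adjusted p = 0.0026). Retnla, a secreted product of alternatively activated macrophages, read 7.8, 1.5 and 4.8 in vector TAC, 46.7, 140.5 and 63.7 in PRODH TAC and 139.9, 109 and 57.8 in vector sham. It rose by 3.92 ± 0.50 (limma adjusted p = 0.00095), and all 3 vector TAC libraries lay below the other 6. Of 19 genes of alternatively activated and resident macrophages 1 was called higher (3 without V1) and 0 lower. General macrophage markers went the other way in sign: 15 of 15 differences were below 0. Of 15 macrophage markers 2 were called lower (0 without P3) and 0 higher; Cd14 was not called without V3, P2 or P3 (-0.81 to -0.78) and Lgals3 not called without P1 or P3 (-1.34 to -1.18). Their summed level ran from 12317 to 25764 in vector TAC and from 10572 to 12239 in PRODH TAC, with vector TAC replicate 1 the highest of all and no marker at 0. Lyz2 read 11719, 4107 and 4108 against 5152, 4544 and 4429 and C1qa 3439, 1859 and 1641 against 1437, 1684 and 1268. The part of macrophage number in the complement and Retnla values was not tested. Of 35 interferon response genes 0 were called higher and 0 lower (1 without VS2). Of 19 antigen presentation genes 0 were called higher (2 without V1) and 0 lower. Of 33 cell cycle genes 0 were called higher and 0 lower (1 without VS1, VS3 or V1). Of 19 clock genes 0 were called higher (1 without V1) and 0 lower (4 without V1). These 4 lists had medians of -0.31, -0.08, -0.33 and -0.03. Without V1 the median of antigen presentation was 0.16 and that of clock genes -0.25.

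Some of the largest called rises lay outside these lists. Pla2g5, a secreted phospholipase A2, read 78.1, 89.9 and 106 in vector TAC and 254, 458 and 405 in PRODH TAC, against 849, 881 and 424 in vector sham. It rose by 1.99 ± 0.26 (limma adjusted p = 0.0011). Ces1d, a carboxylesterase that hydrolyses triacylglycerol, read 319, 174 and 302 against 656, 1039.9 and 829 and rose by 1.69 ± 0.28 (limma adjusted p = 0.0034). Phkg1, the catalytic subunit of muscle phosphorylase kinase, read 44.6, 29.7 and 57.5 against 109, 187 and 147 and rose by 1.74 ± 0.29. Ky, a muscle protein named for kyphoscoliosis in mice, read 93.7, 58.7 and 80.8 against 200.5, 218 and 282 and rose by 1.59 ± 0.24. Slc22a3, an organic cation transporter that takes up monoamines, rose by 1.66 ± 0.29 and Lrrc4b, a leucine-rich repeat adhesion protein, by 1.73 ± 0.23. In none of these genes did the groups overlap, which the rule that picked them required.

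Among the falls, Angptl7, a secreted angiopoietin-like protein, read 239.8, 1089 and 914 in vector TAC and 25.8, 31.8 and 17.6 in PRODH TAC, below the vector sham values of 117, 70.6 and 78.8. It fell by 4.61 ± 0.49 (limma adjusted p = 0.00031). Dio2, the deiodinase that activates thyroid hormone inside cells, read 88.1, 558 and 533 against 21.8, 36.2 and 30.7 and fell by 3.32 ± 0.56 (limma adjusted p = 0.0045). Pamr1, a secreted peptidase-like protein of regenerating muscle, fell by 3.19 ± 0.44.

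The sham libraries show the same viruses without load, and they share no library with the TAC comparison. Of the same 21173 genes, 0 were called by limma between PRODH sham and vector sham (0%), 0 by edgeR and 7 by DESeq2, Prodh among them, and 871 had an unadjusted p under 0.05 (4.11%) against 3488 in TAC hearts. The signs leaned the same way. Of the 449 genes called higher in TAC hearts 340 had a sham difference above 0, with a median of 0.11, and of the 382 called lower 263 had one below 0, with a median of -0.11. Over 9582 genes with a mean of at least 100, the Pearson correlation of the 2 virus differences was 0.32, across genes that are not independent replicates. Acot1 differed by 0.76 in sham hearts, where it read 176, 186 and 191 in vector and 344, 252 and 358 in PRODH with no overlap. Set against unloaded hearts, 422 of the 831 called genes had a PRODH TAC mean inside the range of the 3 vector sham libraries. The same count over all tested genes was not made, so the 422 cannot be read as a return to the unloaded level. Of the genes called higher 147 had a PRODH TAC mean above the vector sham mean, as Ppargc1b did, and of those called lower 164 had one below it, as Angptl7 did.

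The test of the difference itself, the virus effect in TAC hearts minus that in sham hearts, called 22 of 21173 genes (0.104%), 12 lower and 10 higher, and all 22 were also called in TAC hearts. The count was 0 without vector sham replicate 2, PRODH sham replicate 2, vector TAC replicate 2 or PRODH TAC replicate 3, 396 without vector TAC replicate 1, and between 1 and 27 without any one of the others. Cthrc1, a secreted protein of activated fibroblasts, differed by -4.69 in TAC and 0.86 in sham hearts, a difference of -5.55 ± 0.91 (limma adjusted p = 0.038) whose call remained in 2 of 12 fits with a library left out. Nupr1 differed by -2.03 and 0.04, a difference of -2.07 ± 0.28 (limma adjusted p = 0.014) that remained called in 6 of 12. On the other side Klhl33, a kelch-like protein, differed by 1.76 and -0.18, a difference of 1.94 ± 0.31 (limma adjusted p = 0.038) that remained called in 2 of 12. Lingo3, a leucine-rich repeat membrane protein, differed by 1.82 and -0.01, a difference of 1.83 ± 0.28 (limma adjusted p = 0.026) that remained called in 4 of 12. Klhl33 read 109, 62.4 and 81.5 in vector TAC, 281, 268 and 296 in PRODH TAC, 506, 437 and 306 in vector sham and 361, 288 and 447 in PRODH sham. For the other called genes a difference in the virus effect between loaded and unloaded hearts was not shown.

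**Figure D5:**
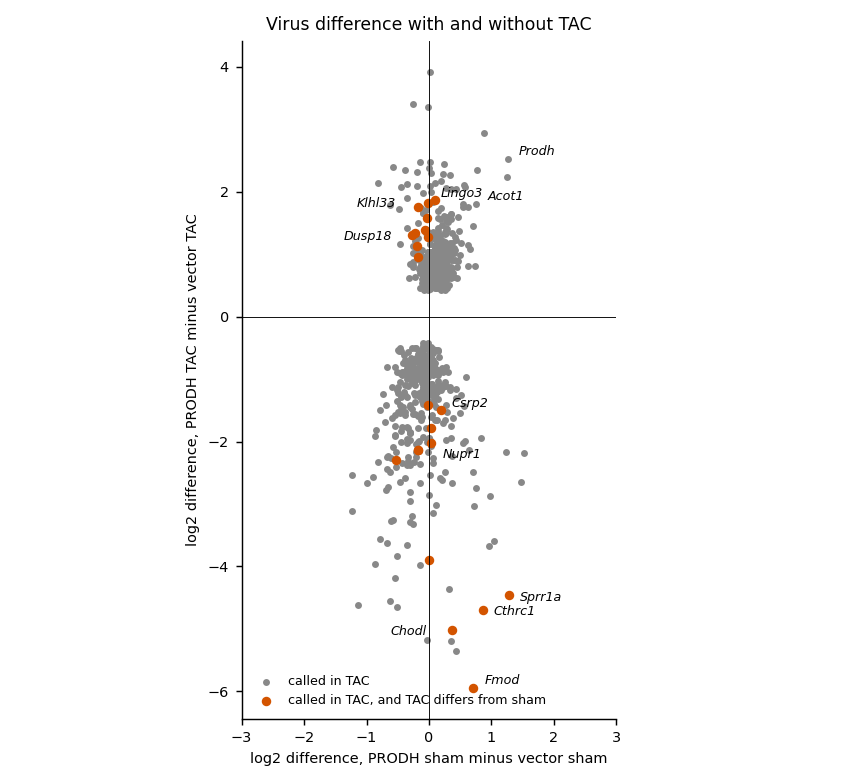
Log2 virus difference in TAC hearts (vertical axis) against that in sham hearts (horizontal axis, same scale) for the 831 genes called in TAC hearts; the 22 genes for which the 2 differences themselves differ are orange. The points spread from -5.94 to 3.92 vertically and much less horizontally.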

How the data were processed

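Bulk RNA was sequenced from 12 heart libraries in 4 groups of 3. Per the labels' protocols, TRIzol was used for extraction, DNase I for clearing DNA and a SMARTER mRNA kit for the libraries. The deposited table holds a signal per gene and library. By its values and a mean column in its header it is read counts divided by 1 size factor per library; the aligner, counter, build and annotation were not given in the sources used here. Dividing each column by its smallest step gave whole reads (tolerance 0.01) for 100.0% of values. Genes reaching 1 in 3 or more libraries were tested on log2(value + 1) by limma 3.58.1 (R 4.3.3, trended prior), 1 mean per group over all 12 libraries, and Benjamini-Hochberg adjustment over all genes tested. A call is an adjusted p under 0.05. An exact permutation of 3 against 3 could not give a p under 0.1.

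Alternatives were edgeR 4.0.16 and DESeq2 1.42.0 on the recovered reads, a pseudocount of 0.1, 3 filters, 3 scalings, a length trend, the 2 groups alone, a replicate block and each library left out. Deviations of same-numbered vector TAC and PRODH TAC libraries correlated at 0.03, 0.08 and -0.06, so no shared deviation by number was seen and they were not paired. With so few libraries this cannot exclude that same-numbered ones were handled together. P-values measure only the spread between these samples, which may be technical. The genes and lists described were chosen with earlier results of these data known. Genes were named by a rule. It took the 12 largest called rises and falls. These had to show no overlap of the 2 TAC groups and to keep their call without any one TAC library. A mean of at least 100 in the higher group was also required. The rule also took the 8 called genes with most reads. In each list it took up to 4 called and 3 highest members, with any called member that goes the other way. Last came the 4 largest differences either way between the virus effect in loaded hearts and that in unloaded hearts. Fewer are printed per list, mostly ones whose call held, a choice made after values were seen. Promoter windows are RefSeq's on GRCm38.p6, not from every chromosome, and motifs were counted in Python 3.11.15. A list is described by counts and its median, with no test of its own. Some genes the rule names are not reported here.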

Additional observations from a re-analysis of the deposited data

Results flagged for a closer look

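For 22 genes the virus difference in TAC hearts itself differed from that in sham hearts by limma at an adjusted p under 0.05, and each value below is the first minus the second on the log2 scale. In genes of matrix and fibroblasts it was Fmod -6.65 (-5.94 in TAC, 0.71 in sham), Cthrc1 -5.55 (-4.69 in TAC, 0.86 in sham), Mfap5 -1.97 (-2.14 in TAC, -0.17 in sham), Mfap4 -1.96 (-2.14 in TAC, -0.18 in sham), Fibin -1.75 (-2.29 in TAC, -0.53 in sham) and Ctsk -1.40 (-1.41 in TAC, -0.02 in sham). In other genes lower in loaded PRODH hearts it was Sprr1a -5.74 (-4.46 in TAC, 1.28 in sham), Chodl -5.38 (-5.01 in TAC, 0.37 in sham), Gm32255 -3.89 (-3.89 in TAC, 0.00 in sham), Nupr1 -2.07 (-2.03 in TAC, 0.04 in sham), Eya2 -1.81 (-1.78 in TAC, 0.03 in sham) and Csrp2 -1.70 (-1.50 in TAC, 0.19 in sham). In genes higher in loaded PRODH hearts it was P2ry1 1.14 (0.95 in TAC, -0.18 in sham), Tmem82 1.29 (1.28 in TAC, -0.01 in sham), Hcn2 1.33 (1.13 in TAC, -0.20 in sham), Pdp2 1.45 (1.38 in TAC, -0.07 in sham), Wnk2 1.55 (1.33 in TAC, -0.22 in sham) and Dusp18 1.57 (1.31 in TAC, -0.27 in sham). For the remaining genes it was Whrn 1.61 (1.57 in TAC, -0.03 in sham), Gm28439 1.76 (1.86 in TAC, 0.10 in sham), Lingo3 1.83 (1.82 in TAC, -0.01 in sham) and Klhl33 1.94 (1.76 in TAC, -0.18 in sham). With 1 of the 12 libraries left out in turn these calls remained in 1 to 7 of the 12 fits, 7 for Csrp2 and Gm28439. Chodl had 151 reads over the 3 vector TAC libraries and 0 over the 3 PRODH TAC libraries, which is at least 38.5-fold lower when the floor is set at 3 reads per group. Gm32255 had 56 and 0, at least 14.3-fold lower.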

How the results depend on the processing

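The number of genes called between PRODH TAC and vector TAC was 831, and 745 to 970 under the other pseudocount, filters and scalings, the replicate block (914) and edgeR (874). It was 1509 by DESeq2, 1263 with a length trend removed and 108 with the 2 groups alone, a fit with fewer samples. With 1 library left out it ran from 248 to 2719, and the cause was not tested. Prodh kept its call in every alternative run, at 2.39 to 2.71 with a library left out. Of 187 other named genes called, 178 to 187 kept direction and call under the pseudocount, filters, scalings, block, length trend, edgeR and DESeq2; 43 did so with the 2 groups alone and 99 to 187 with 1 library left out. In sham hearts 0 genes were called, 7 by DESeq2 and 0 to 2 with a library left out. The test of the virus effect in TAC hearts minus that in sham hearts gave 22 calls. It gave 7 with the pseudocount of 0.1, 12 with the filter in the 6 TAC libraries and 8 with a mean of at least 10. By DESeq2 the count was 206, with the replicate block 35 and with a library left out 0 to 396. Among calls, more genes were lower than higher by edgeR (414 higher, 460 lower) and with upper quartile scaling (380 and 415), against 449 higher and 382 lower. No named gene that was called reversed in these alternatives. List medians near 0 changed sign with the scaling for atrophy and autophagy genes, cell surface amino acid transporters, antioxidant enzymes, lymphocyte markers and lymphatic markers. With 1 library left out, the medians of 20 of 74 lists took both signs. Without vector TAC replicate 1 the median went from -0.35 to 0.95 for epicardial and mesothelial markers, from -0.09 to 0.53 for neutrophil and mast cell markers, from -0.08 to 0.16 for antigen presentation and from 0.23 to -0.14 for immediate early genes.

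With 3 libraries a side, whether a difference is called depends on a spread that 1 library moves. Depth limits genes with few reads, of which 38 called ones had at most 3 reads over 1 TAC group. Vector TAC replicates 2 and 3 were sequenced more deeply than the PRODH TAC libraries, and replicate 1 was not. The tissue is bulk, so levels per cell are not measured.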

Other observations

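Some lists not described above gave calls. Of 25 matrix glycoproteins and proteoglycans 9 were called lower (4 without V2, V3, P1 or P2 and 19 without V1) and 0 higher (1 without V1), with a median of -0.88. Mgp, matrix Gla protein, which inhibits calcification, read 9880.5, 7881 and 6952 in vector TAC and 2622, 2716 and 2457 in PRODH TAC and fell by 1.65 ± 0.22 (limma adjusted p = 0.0011), with no overlap. Of 15 cathepsins and cystatins 2 were called lower (2 to 3) and 0 higher (1 without V1). Ctsz, a lysosomal carboxypeptidase, read 1293, 1166 and 979 against 729, 659 and 637 and fell by 0.76 ± 0.13 (limma adjusted p = 0.0053). Prox1, a transcription factor of lymphatic endothelium that heart muscle also expresses, read 243, 236 and 316 against 535, 496 and 608 and rose by 1.05 ± 0.19 (limma adjusted p = 0.0064). Of 6 lymphatic endothelial markers 1 was called higher and 0 lower (1 without PS2 or V1), so that Prox1 was the only call there. Of 41 chemokines, interleukins and receptors 2 were called lower (0 without PS1, V2, V3, P1 or P3 and 5 without V1) and 1 higher (0 without V2, V3, P1, P2 or P3 and 2 without V1). Of 23 immediate early genes 1 was called higher (0 without any one of 7 libraries and 2 without VS1 or V3) and 0 lower (2 without V1). Of 19 genes of serine synthesis and one-carbon metabolism 0 were called higher (2 without V1) and 0 lower (2 without V1). In brackets, libraries are abbreviated as in the report.

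The table lists 0 genes encoded by the mitochondrial genome. It lists 7 unprocessed pseudogenes of chromosome 1 whose transcripts share 97.2% or more of their 31-base words with mitochondrial transcripts, a set noticed after its values were seen. All 7 had a higher mean in PRODH TAC than in vector TAC, with log2 differences from 0.85 to 1.86, and 2 were called. All 7 also had a higher mean in PRODH sham than in vector sham (0.10 to 1.83), and 0 were called there by limma. DESeq2 called Gm29216 alone of them there. The sham difference was the larger one in Gm29216 (1.46 against 1.02), Gm28438 (1.83 against 1.39) and Gm28661 (1.07 against 0.85). Gm28439, which matches mt-Nd4, read 1539.5, 1340.2 and 1533 in vector TAC, 4514, 5762 and 5870.0 in PRODH TAC and 2567, 3196 and 3210.2 in vector sham, and rose by 1.86 ± 0.15 (limma adjusted p = 8.2e-05). Gm10222, which matches mt-Nd4l, read 398, 317 and 468 against 886, 1118 and 864 and rose by 1.28 ± 0.22 (limma adjusted p = 0.0042). Reads of these pseudogenes and of the mitochondrial genes they match cannot be told apart in this table.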
